A study of Mus musculus with 8 samples.

Results

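Complement components, receptors and regulators were followed in splenocytes of 8 mice. The set was 9 genes chosen by name: the C1q subunit genes C1qa, C1qb and C1qc, the component genes C3, C4b, Cfb and Cfp, the anaphylatoxin receptor gene C3ar1 and the membrane regulator gene Cr1l. A gene was read from the probe set that the array's annotation assigned to that symbol alone, taking the one with the highest mean, which here was the single such probe set of each gene. Of the 9 genes, 8 had such a probe set among 19938 genes of the series. C3 had none in the annotation used, so it was not analysed here. All 8 passed the filter on low values and were among the 14953 genes tested.

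The arrays came from Sle1.3/E2-2het mice (lupus mice of the Sle1.3 genotype that are also haplodeficient for E2-2, n = 3), Sle1.3 lupus mice with no E2-2 change named (n = 3) and wild-type mice (WT, n = 2), all labelled with the C57/B6 strain background, with no age given. The gene Tcf4 encodes E2-2, a transcription factor that plasmacytoid dendritic cells need. Each mouse gave 1 array (Affymetrix Mouse Gene ST) of RNA from a suspension of its spleen, digested with collagenase and DNase, and no treatment of the animals was stated. With 1 array per mouse, p-values measure the spread between mice. A splenocyte value averages over all cells of the spleen, and more cells of a type cannot be told apart from more RNA per cell. Labelled sex was male, male and female in Sle1.3/E2-2het replicates 1 to 3, female, female and male in Sle1.3 replicates 1 to 3, and male in both WT mice.

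Complement is a cascade of plasma proteins. C1q, a molecule built from A, B and C chains, binds immune complexes and dying cells and starts the classical pathway, which runs through C4 and C2 to the cleavage of C3. The alternative pathway amplifies C3 cleavage through factor B and properdin, and membrane regulators stop it on host cells. Most complement proteins are made in the liver, whereas C1q is made largely by macrophages and dendritic cells, and properdin by myeloid cells. In humans and mice, inherited lack of C1q predisposes to lupus.

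Facts of the whole series bear on every value. Both replicate 3 arrays of the Sle1.3 genotypes had a lowest linear intensity of 10.9 and 11.2 and a median log2 intensity of 6.17, against 4.57 to 5.11 and 5.83 to 5.95 on the 6 remaining arrays. This pair is called the second array set below. WT mice were in the first set only. Xist, transcribed in female cells, was high (log2 10.68 to 11.90) in all 3 Sle1.3 mice and in Sle1.3/E2-2het replicate 3 (11.82), and low (3.75 to 4.29) in the other 4. The label of Sle1.3 replicate 3 says male, against its Xist value. By Xist, the Sle1.3 mice were female and the WT mice male, so genotype and sex cannot be told apart between them. Sle1.3/E2-2het replicates 1 and 2 and both WT mice were male and in the first set. Within that set Sle1.3/E2-2het against Sle1.3 is therefore male against female, so genotype and sex cannot be told apart there either. In the fit to all 8 arrays Xist differed by -4.49 in that comparison, and only the second-set pair shared a sex. For the targeted gene Tcf4, Sle1.3/E2-2het mice had 8.18, 8.13 and 9.25, Sle1.3 mice had 8.67, 8.63 and 9.06, and WT mice had 9.02 and 8.80. Sle1.3/E2-2het minus Sle1.3 gave -0.27 for Tcf4, which did not pass (SE 0.15, adjusted p = 0.575), and Sle1.3/E2-2het minus WT gave -0.64, which did (adjusted p = 0.0163). Replicate 3 of Sle1.3/E2-2het was the highest of all 8 arrays, and that call was lost with genotype alone (-0.39, adjusted p = 0.393), with labelled sex in place of the array set (-0.51, adjusted p = 0.323) and on leaving out 1 array (highest adjusted p = 0.0806). Which part of the gene the allele lacks is not stated, so the probe set may not test it. The B cell gene Cd79a (11.20 to 12.34) and the T cell gene Cd3e (8.85 to 10.06) were high in all 8 arrays. Values below are log2 intensities per array in replicate order. Differences come from 1 limma fit to all 8 arrays with genotype and array set, with p-values adjusted by Benjamini and Hochberg over all genes tested and a threshold of 0.05.

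The 3 C1q genes lie side by side on chromosome 4 (GRCm38.p6). C1qb spans 136880126 to 136886200, C1qc 136889801 to 136892936 and C1qa 136895916 to 136898844. The starts of C1qb and C1qc are shown because these had the most alike profiles among members, and that of Cr1l because it was the member that was lower in both Sle1.3 genotypes. Windows run from 250 bases before to 50 bases after the start, 5′ to 3′ on the minus strand, from RefSeq on GRCm38.p6. Of the 9 members 6 had a window, and C1qa, C4b and Cfb were not among them. The windows are chr4:136886151-136886450 for C1qb, chr4:136892865-136893164 for C1qc and chr1:195131521-195131820 for Cr1l. Capitals mark matches on either strand to CANNTG (the E-box, the kind of site that E proteins such as E2-2 bind) or GAGGAA (a core of Ets factor sites).
C1qb: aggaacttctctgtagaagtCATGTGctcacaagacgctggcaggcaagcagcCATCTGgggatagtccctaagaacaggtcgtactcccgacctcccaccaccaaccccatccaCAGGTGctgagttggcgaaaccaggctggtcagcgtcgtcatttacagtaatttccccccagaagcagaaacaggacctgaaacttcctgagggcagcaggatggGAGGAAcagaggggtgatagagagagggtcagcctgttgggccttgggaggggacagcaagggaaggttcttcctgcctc
C1qc: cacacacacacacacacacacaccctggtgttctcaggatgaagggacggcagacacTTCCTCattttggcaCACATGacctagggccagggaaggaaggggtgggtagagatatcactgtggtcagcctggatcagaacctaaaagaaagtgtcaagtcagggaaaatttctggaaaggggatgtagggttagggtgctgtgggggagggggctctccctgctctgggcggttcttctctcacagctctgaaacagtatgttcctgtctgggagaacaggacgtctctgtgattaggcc
Cr1l: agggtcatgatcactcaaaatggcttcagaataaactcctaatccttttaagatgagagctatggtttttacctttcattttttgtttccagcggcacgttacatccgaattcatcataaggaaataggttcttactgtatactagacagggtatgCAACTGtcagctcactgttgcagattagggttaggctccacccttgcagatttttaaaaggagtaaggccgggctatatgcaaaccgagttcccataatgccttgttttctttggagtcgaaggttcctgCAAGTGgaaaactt

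The C1qb window held 3 matches to CANNTG and 1 to GAGGAA, the C1qc window held 1 of each, and the Cr1l window held 2 to CANNTG and none to GAGGAA. Among all 32851 windows of the same length, 72.3% held CANNTG and 28.3% held GAGGAA. These matches are a description of letters and say nothing of binding.

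All 3 C1q genes rose in both Sle1.3 genotypes against WT, where 10.7% of all genes tested rose in Sle1.3/E2-2het and 7.46% in Sle1.3. C1qb, the B chain gene, was 9.86, 8.93 and 9.77 in Sle1.3/E2-2het mice and 9.82, 9.56 and 10.33 in Sle1.3 mice, against 7.90 and 8.53 in WT mice. Both Sle1.3 genotypes lay wholly above WT, and Sle1.3/E2-2het replicate 2 was the lowest of their 6 mice. C1qb rose by 1.13 (SE 0.26, adjusted p = 0.00845), a 2.19-fold change, in Sle1.3/E2-2het against WT, and by 1.52 (SE 0.26, adjusted p = 0.00285), 2.86-fold, in Sle1.3 against WT.

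C1qc, the C chain gene, was 9.31, 8.31 and 9.12 in Sle1.3/E2-2het and 9.13, 8.73 and 9.31 in Sle1.3, against 7.39 and 7.98 in WT. Again no mouse of either Sle1.3 genotype fell into the WT range. C1qc rose by 1.12 (SE 0.27, adjusted p = 0.0108) in Sle1.3/E2-2het and by 1.26 (SE 0.27, adjusted p = 0.00790) in Sle1.3, both against WT.

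C1qa, the A chain gene, was 7.44, 6.93 and 7.87 in Sle1.3/E2-2het and 7.24, 7.39 and 7.98 in Sle1.3, against 6.09 and 6.78 in WT. The groups did not overlap, but Sle1.3/E2-2het replicate 2 was close to WT replicate 2. C1qa rose by 0.75 (SE 0.21, adjusted p = 0.0196) in Sle1.3/E2-2het and by 0.88 (SE 0.21, adjusted p = 0.0130) in Sle1.3, both against WT. Among mice that were male by Xist and in the first set, Sle1.3/E2-2het replicates 1 and 2 exceeded WT by 1.18 for C1qb, 1.13 for C1qc and 0.75 for C1qa (adjusted p = 0.0119, 0.0174 and 0.0324 in limma on the first set alone).

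These C1q calls depend on the WT mice and on how sex enters. WT replicate 1 was lower than WT replicate 2 in each C1q gene, and without it no C1q gene passed in Sle1.3/E2-2het against WT (adjusted p = 0.0701 to 0.147), C1qa differed by 0.41 there and by 0.53 in Sle1.3 against WT, and only C1qb of the 3 passed in Sle1.3 against WT. Without Sle1.3/E2-2het replicate 1, C1qa had adjusted p = 0.0814 against WT, and with labelled sex in place of the array set none of the 3 passed in either comparison (adjusted p = 0.0634 to 0.190), with differences of 0.97 to 1.77. With sex by Xist beside the array set none passed in Sle1.3 against WT (adjusted p = 0.0725 to 0.219), and with genotype alone C1qa passed in neither comparison (adjusted p = 0.0757 in Sle1.3/E2-2het and 0.0644 in Sle1.3).

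**Figure D1:**
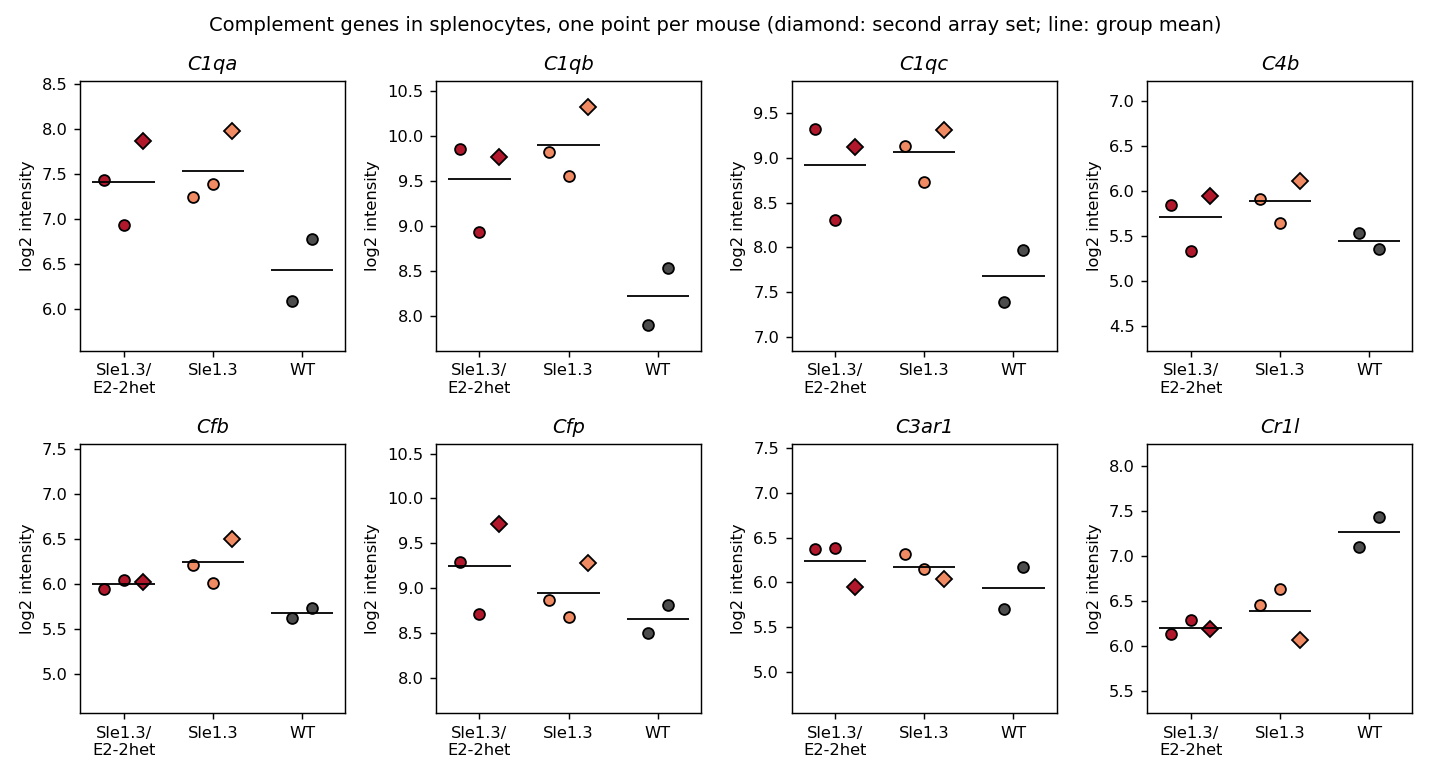
Log2 intensity (y axis, a span of 3 log2 units in each panel) of the 8 measured complement genes in each mouse, for Sle1.3/E2-2het, Sle1.3 and WT (x axis). Circles are first-set and diamonds second-set arrays, and lines are group means. C1qa, C1qb, C1qc and Cfb lie higher and Cr1l lower in all 6 mice of the Sle1.3 genotypes than in the 2 WT mice. Of all genes tested, 49.1% did not overlap between Sle1.3/E2-2het and WT, and 46.0% between Sle1.3 and WT.

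Between the Sle1.3 genotypes no member passed the test, where 0.615% of all genes did. C1qb was 0.38 lower in Sle1.3/E2-2het than in Sle1.3 (95% interval -0.87 to 0.11, adjusted p = 0.597), C1qc differed by -0.14 (-0.65 to 0.37, adjusted p = 0.877) and C1qa by -0.13 (-0.52 to 0.27, adjusted p = 0.861). These intervals do not show that the genotypes are alike, since for C1qb they reach from a fall of nearly 1 log2 unit to a small rise. In the second set alone, where both mice were female by Xist, Sle1.3/E2-2het minus Sle1.3 was -0.56 for C1qb, -0.19 for C1qc and -0.11 for C1qa, with 1 mouse each and so no test.

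Likeness of profiles over the 8 arrays was measured as the mean absolute difference between profiles centred on each gene's own mean. Of 14952 other genes, C1qc was the nearest to C1qb and C1qb the nearest to C1qc, at 0.13 log2 units, against a median of 0.64 from C1qb to any tested gene. C1qa ranked 19 from C1qb and 22 from C1qc, while C1qc ranked 107 and C1qb 373 from C1qa. The 5 genes nearest to the mean C1q profile were Mir301b, Abcd2, Gm266, Vmn1r174 and Vmn1r228, at 0.15 to 0.18. Their WT values, 4.02 to 5.39, lay near or below the filter value of 5.01. The second-set array was the highest of its group for each gene in Sle1.3, and for all but Abcd2 in Sle1.3/E2-2het. The arrays share their genotype groups and sets, so any gene with a like step between WT and the other mice can come near.

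Splenic macrophages are a known source of C1q, and their marker genes are set beside it here. The summed linear intensity of 13 of 13 listed macrophage genes was 2471 to 3809 in Sle1.3/E2-2het, 1584 to 1831 in Sle1.3, and 1313 and 1831 in WT. On this list Sle1.3 overlapped WT. In Sle1.3 against WT 2 of the 13 rose, where 7.46% of all genes tested did: Cd5l (0.81, SE 0.27) and the iron exporter gene Slc40a1 (0.72, SE 0.20). The list median was 0.17, beside -0.06 over all genes tested. Neither Cd5l nor Slc40a1 passed in the first set alone, where 0 of 13 did (adjusted p = 0.102 for Cd5l and 0.0547 for Slc40a1). Of the 13, 7 rose in Sle1.3/E2-2het against WT, where 10.7% of all genes did, with a median of 0.83, beside -0.09 over all genes. In Sle1.3/E2-2het against Sle1.3, Slc40a1 (1.22, adjusted p = 0.00912) and the adhesion molecule gene Vcam1 (1.09, adjusted p = 0.0329) rose, where 0.154% of all genes did. With the replicate block 4 of the 13 rose in that comparison, and in the first set alone 1 did, Vcam1 having adjusted p = 0.0620 there, 0.236 with genotype alone and up to 0.109 without 1 array. Slc40a1 did not pass with genotype alone (adjusted p = 0.243) or with labelled sex in place of the array set (adjusted p = 0.564). In the first set these genotypes also differ in sex by Xist. The defining markers Spic (6.61 to 8.34), Adgre1 (7.65 to 8.47) and Cd5l (4.88 to 6.80) were measured on all arrays.

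Counts for other cell lists are read beside the shares of all genes tested that rose and fell, 10.7% and 23.4% in Sle1.3/E2-2het against WT and 7.46% and 16.5% in Sle1.3 against WT. Summed intensity of 8 monocyte genes was 3971 to 5446 in Sle1.3/E2-2het, 3815 to 5219 in Sle1.3 and 4602 and 4666 in WT, so both genotypes overlapped WT, with 1 of 8 genes higher in either genotype against WT (Ccr2 in Sle1.3/E2-2het, Cx3cr1 in Sle1.3). Neutrophil genes, of which 10 of 11 rose in each genotype, summed to 8036 to 21274 in Sle1.3/E2-2het, 6626 to 23824 in Sle1.3 and 1881 and 2431 in WT. Conventional dendritic cell genes, another known source of C1q, summed to 749 to 875 in Sle1.3/E2-2het, 553 to 571 in Sle1.3 and 699 and 1050 in WT. Of these 5 genes 1 fell in Sle1.3/E2-2het and 2 in Sle1.3 against WT, and Cd209a rose in Sle1.3/E2-2het against Sle1.3 (1.51, adjusted p = 0.00488). Cd209a did not pass there with genotype alone (adjusted p = 0.0982) or with labelled sex in place of the array set (adjusted p = 0.164). Among the other lists, tested members that rose or fell in Sle1.3/E2-2het against WT were 0 and 5 of 7 for B cells, 0 and 2 of 7 for T cells, 3 and 0 of 10 for stroma and endothelium, 4 and 0 of 4 for erythroid cells and 0 and 2 of 4 for plasmacytoid dendritic cells. These counts were, in Sle1.3 against WT, 0 and 2, 0 and 1, 1 and 0, 0 and 0, and 0 and 2. In Sle1.3/E2-2het against Sle1.3, 2 of 4 erythroid genes rose, where 0.154% of all genes did. They were Alas2 (2.34, adjusted p = 0.0293) and Slc4a1 (2.25, adjusted p = 0.0157). With genotype alone neither passed (adjusted p = 0.222 and 0.0982), and each was lost on leaving out 1 array. With the replicate block 3 erythroid genes rose there, and 2 neutrophil genes and 1 T cell gene fell. No hepatocyte gene passed in any comparison (0 of 5 tested), and Alb, the gene of the chief liver plasma protein, was 4.69 to 5.99. With the replicate block, counts against WT in Sle1.3 came to 2 monocyte, 2 stromal and 1 erythroid genes higher and 3 B cell genes lower, and 1 conventional dendritic cell gene rose in Sle1.3/E2-2het. In the first set alone 4 of 7 T cell genes fell in Sle1.3/E2-2het against WT, and 0 of 8 monocyte genes passed in Sle1.3 against WT. The part of these cell types in the C1q result was not tested.

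**Figure D2:**
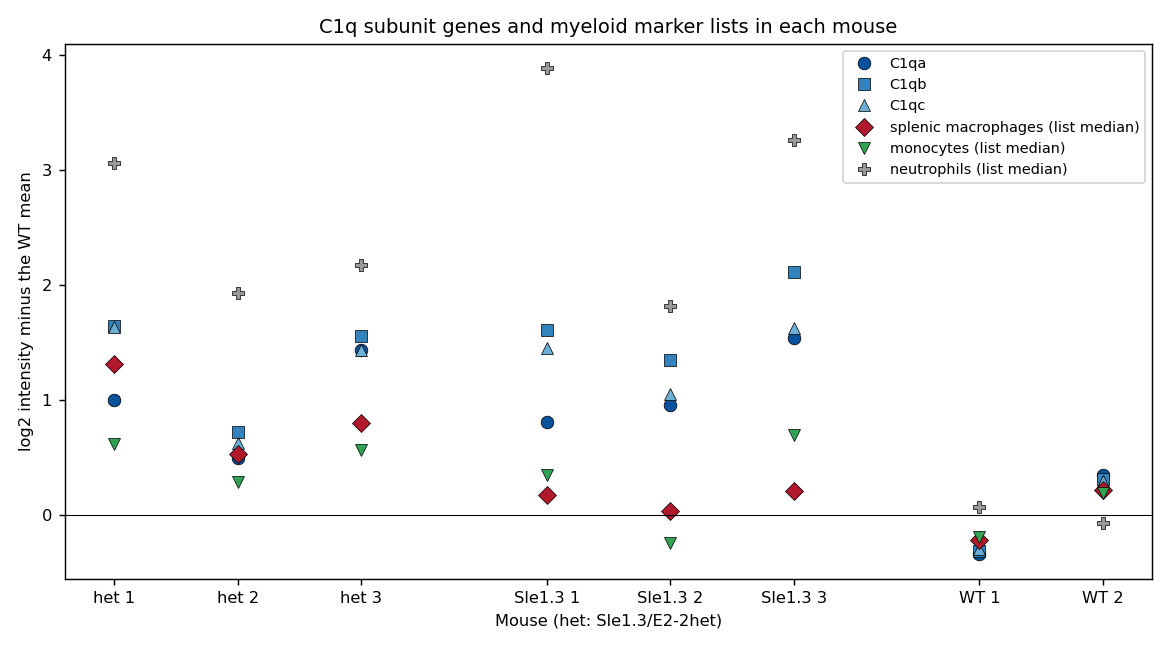
C1qa, C1qb and C1qc and the median of the splenic macrophage, monocyte and neutrophil marker lists in each mouse, as log2 intensity minus the mean of the 2 WT mice (y axis). In the 3 Sle1.3 mice the C1q genes lie between 0.80 and 2.11. The macrophage median lies there between 0.03 and 0.21, the monocyte median between -0.24 and 0.69 and the neutrophil median between 1.81 and 3.88. In Sle1.3/E2-2het the C1q genes lie between 0.50 and 1.64. The macrophage median lies there between 0.52 and 1.31, the monocyte median between 0.28 and 0.61 and the neutrophil median between 1.93 and 3.06.

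Of the measured component genes other than those of C1q, C4b and Cfp passed in no comparison and Cfb in 1. C4b, the gene of the component that C1 cleaves, was 5.85, 5.33 and 5.94 in Sle1.3/E2-2het and 5.91, 5.64 and 6.12 in Sle1.3, against 5.53 and 5.36 in WT. Sle1.3/E2-2het overlapped WT, and both second-set arrays were the highest of their groups. C4b did not pass in Sle1.3/E2-2het (0.15, 95% interval -0.23 to 0.53, adjusted p = 0.526) or in Sle1.3 (0.33, -0.05 to 0.71, adjusted p = 0.190) against WT. Its near-identical neighbour C4a, which fell below the filter, may share probes with it, which was not tested.

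Cfb, the gene of factor B, the protease of the alternative C3 convertase, was 5.95, 6.05 and 6.02 in Sle1.3/E2-2het and 6.21, 6.02 and 6.50 in Sle1.3, against 5.62 and 5.73 in WT. All 6 mice of the Sle1.3 genotypes lay above both WT mice. Cfb rose by 0.50 (SE 0.15, adjusted p = 0.0319) in Sle1.3 against WT. It did not pass in Sle1.3/E2-2het (0.26, 95% interval -0.07 to 0.58, adjusted p = 0.189). The Sle1.3 call was lost in the first set alone (0.43, adjusted p = 0.0772), after quantile normalization (adjusted p = 0.0559), without either WT mouse (adjusted p = 0.103 without replicate 1 and 0.0930 without replicate 2) and without Sle1.3 replicate 1 (adjusted p = 0.117) or either second-set array (adjusted p = 0.0772). Labelled sex in place of the array set (0.69, adjusted p = 0.166), sex by Xist beside it (0.80, adjusted p = 0.103) and a fit with neither (0.56, adjusted p = 0.100) also ended it.

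Cfp encodes properdin, which stabilises the alternative convertase, and lies on the X chromosome. It was 9.29, 8.72 and 9.72 in Sle1.3/E2-2het and 8.87, 8.68 and 9.28 in Sle1.3, against 8.50 and 8.82 in WT. The 3 groups overlapped, and the second-set mouse was the highest in each Sle1.3 genotype. Cfp passed in no comparison: it differed by 0.38 (95% interval -0.03 to 0.80, adjusted p = 0.131) in Sle1.3/E2-2het and by 0.08 (-0.33 to 0.50, adjusted p = 0.775) in Sle1.3 against WT. It differed by 0.30 (-0.05 to 0.65, adjusted p = 0.568) in Sle1.3/E2-2het against Sle1.3. Against WT it passed in Sle1.3/E2-2het after quantile normalization (0.62, adjusted p = 0.0320) and without Sle1.3/E2-2het replicate 2 (0.61, adjusted p = 0.0335).

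C3ar1, the receptor gene for the anaphylatoxin C3a, was 6.37, 6.38 and 5.95 in Sle1.3/E2-2het and 6.32, 6.16 and 6.04 in Sle1.3, against 5.71 and 6.18 in WT. Here the second-set arrays were the lowest of their groups, and all groups overlapped. The differences from WT were 0.40 (95% interval 0.04 to 0.76, adjusted p = 0.0809) in Sle1.3/E2-2het and 0.33 (-0.03 to 0.69, adjusted p = 0.161) in Sle1.3. The first passed without WT replicate 2 (0.63, adjusted p = 0.0420).

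Cr1l was the member that fell. It encodes Crry, the rodent membrane regulator that blocks C3 and C4 deposition on host cells. Cr1l was 6.13, 6.28 and 6.18 in Sle1.3/E2-2het and 6.46, 6.64 and 6.06 in Sle1.3, against 7.10 and 7.43 in WT. All 6 mice of the Sle1.3 genotypes lay below both WT mice. It fell by 0.98 (SE 0.17, adjusted p = 0.00235), 1.97-fold, in Sle1.3/E2-2het against WT and by 0.79 (SE 0.17, adjusted p = 0.00708), 1.73-fold, in Sle1.3 against WT. It differed by -0.19 in Sle1.3/E2-2het against Sle1.3 (95% interval -0.50 to 0.13, adjusted p = 0.709).

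The Sle1.3/E2-2het fall of Cr1l passed in each of 19 alternative fits (adjusted p = 0.000650 to 0.0342), among them the first set alone, where the mice compared were all male by Xist (-1.06, adjusted p = 0.00240). Of the 19, 4 are this same fit for that comparison: the first set alone, sex by Xist beside the array set, and leaving out either second-set array. Others reuse the Cr1l values of the main fit. Cr1l had 1 probe set, so the mean of all probe sets was the same, and changing the filter left its difference unaltered. The Sle1.3 call was lost with labelled sex (-1.03, adjusted p = 0.0795), with sex by Xist beside the array set (-1.18, adjusted p = 0.0543) and without WT replicate 2 (-0.63, adjusted p = 0.0802).

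Cr1l lies on distal chromosome 1 (195098711 to 195131570, GRCm38.p6) next to Cr2, which encodes complement receptors of B cells and follicular dendritic cells and has been studied as a lupus candidate gene in mice. Cr2 passed in no comparison. It was 9.33, 9.84 and 10.11 in Sle1.3/E2-2het and 9.32, 9.43 and 9.66 in Sle1.3, against 9.23 and 9.64 in WT. Its differences from WT were 0.19 in Sle1.3/E2-2het (95% interval -0.22 to 0.60, adjusted p = 0.443) and -0.10 in Sle1.3 (-0.50 to 0.31, adjusted p = 0.736). In a window of 1 Mb to either side of the Cr1l start, chosen after its values were seen, 4 other genes were tested. None of them fell, and Cd34 rose in Sle1.3 against WT (0.82, adjusted p = 0.0263). Cd46, which adjoins Cr1l, was below the filter and so was not among the genes tested. Its first-set means differed from WT by -0.73 in Sle1.3/E2-2het and -0.45 in Sle1.3. Whether the fall of Cr1l is shared by its neighbours is therefore not settled by these genes. The genes with profiles nearest to Cr1l, at 0.05 to 0.08 log2 units, were Micu3, Osbpl11, Dgke, Zbtb1 and Magi3, none of them on chromosome 1.

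In all, 4 of 8 tested members passed in Sle1.3/E2-2het against WT, 3 higher and 1 lower, where 34.1% of all genes passed (10.7% higher and 23.4% lower). In Sle1.3 against WT 5 of 8 passed, 4 higher and 1 lower, where 24.0% of all genes did (7.46% higher and 16.5% lower). Both comparisons share the WT mice. In Sle1.3/E2-2het against Sle1.3, 0 of 8 passed in limma, with 0 at an unadjusted p under 0.05, where 0.615% of all genes passed (0.154% higher and 0.461% lower). The arrays of both groups did not overlap for 5 of 8 members in Sle1.3/E2-2het against WT, 4 higher and 1 lower, where 49.1% of all genes did so (25.9% higher and 23.2% lower). This held for 6 of 8 in Sle1.3 against WT, 5 higher and 1 lower, where it held for 46.0% of all genes (21.5% higher and 24.4% lower). It held for 0 of 8 in Sle1.3/E2-2het against Sle1.3, where it held for 7.38% of all genes (3.04% higher and 4.33% lower). The median difference of the 8 members was 0.39 in Sle1.3/E2-2het against WT, beside -0.09 over all genes. It was 0.41 in Sle1.3 against WT, beside -0.06 over all genes, and -0.16 in Sle1.3/E2-2het against Sle1.3, beside 0.0017 over all genes. As the 3 C1q genes adjoin and moved alike, they are not 3 separate observations.

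**Figure D3:**
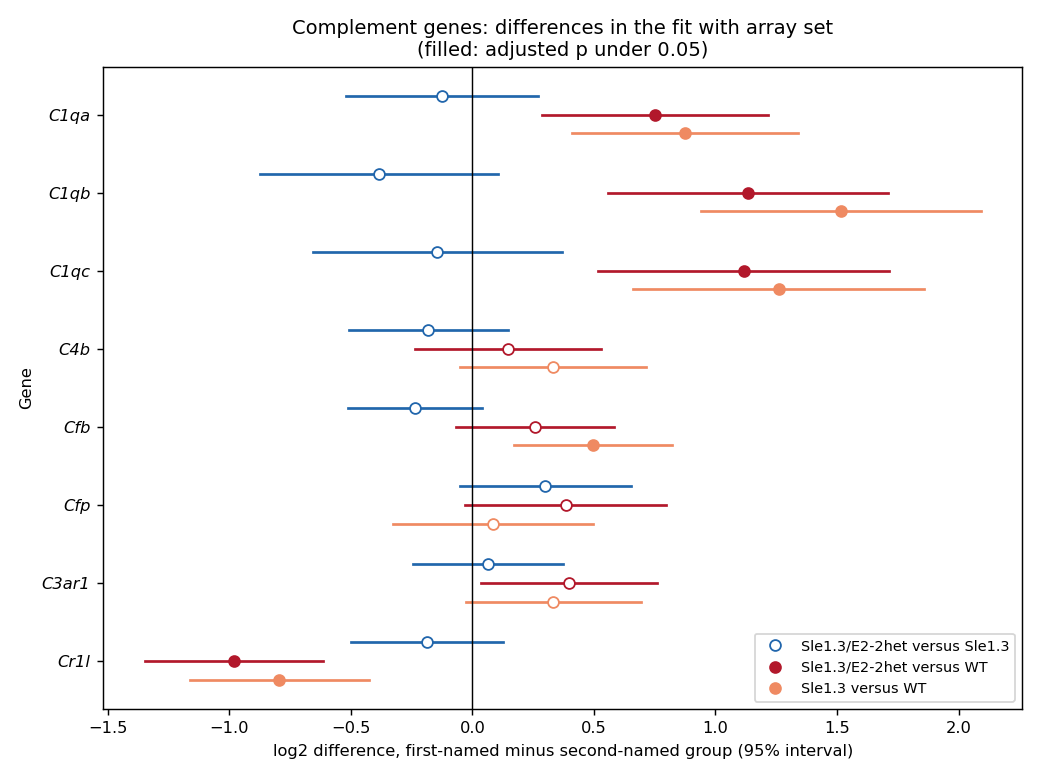
Log2 differences (x axis, points) with 95% intervals (lines) of the 8 measured complement genes (y axis) in the 3 comparisons, with filled points for adjusted p under 0.05. Both comparisons with WT place C1qa, C1qb and C1qc between 0.75 and 1.52 and Cr1l between -0.98 and -0.79, and no member is filled in Sle1.3/E2-2het against Sle1.3.

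Beyond the members, 41 other complement genes were listed by role, of which 38 had a probe set of their own and 21 passed the filter. In Sle1.3/E2-2het against WT 8 of the 21 rose and 1 fell, where 10.7% of all genes rose and 23.4% fell. In Sle1.3 against WT 3 rose and 3 fell, where 7.46% rose and 16.5% fell, and in Sle1.3/E2-2het against Sle1.3 1 rose, where 0.154% of all genes did. Among the 8 that rose in Sle1.3/E2-2het, C4bp, C8g and Vtn had WT means below the filter value of 5.01. The filter takes the mean of all arrays, so these genes passed it only through the Sle1.3 genotypes, which favours a rise. The genes below the filter included the proteases C1ra, C1s1, C1s2, Masp1 and Masp2, most of the terminal pathway (Hc, C7, C8a, C8b and C9) and the regulators Cfi and Cd46.

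Of 5 tested recognition genes of the lectin pathway, Fcna, encoding ficolin A, was 7.56, 7.20 and 7.79 in Sle1.3/E2-2het and 6.50, 6.59 and 6.84 in Sle1.3, against 5.88 and 6.59 in WT. The Sle1.3/E2-2het mice lay above every other mouse. Fcna rose by 1.17 (SE 0.20, adjusted p = 0.00248) against WT and by 0.87 (SE 0.17, adjusted p = 0.0481) against Sle1.3, the 1 complement gene that passed between these genotypes. The second call was lost in 12 of 19 alternative fits, among them the first set alone (adjusted p = 0.186), where these genotypes also differ in sex by Xist. These 12 include the fits without Sle1.3 replicate 1 or 3 or any 1 of the 3 Sle1.3/E2-2het mice (highest adjusted p = 0.202), of which those without a second-set array equal the first set alone. Sex by Xist, another of the 12, leaves 1 mouse in each group.

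Fcnb, encoding ficolin B of myeloid cells, was 7.81, 6.34 and 7.11 in Sle1.3/E2-2het and 8.01, 6.50 and 7.99 in Sle1.3, against 5.93 and 5.66 in WT. It rose in Sle1.3 against WT (1.57, SE 0.45, adjusted p = 0.0266), but not in the first set alone (adjusted p = 0.0627). In Sle1.3/E2-2het it differed by 1.16 (adjusted p = 0.0656, and 0.00426 with the replicate number as a block). Colec10, encoding a soluble collectin, rose by 0.69 (adjusted p = 0.00740) in Sle1.3/E2-2het and by 0.48 (adjusted p = 0.0405) in Sle1.3, but in Sle1.3 not in the first set alone (adjusted p = 0.0637).

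C2, the gene of the protease of the classical convertase and the neighbour of Cfb on chromosome 17, differed from WT by 0.40 (adjusted p = 0.0591) in Sle1.3/E2-2het and by 0.16 (adjusted p = 0.463) in Sle1.3. The first of these passed with the replicate block (adjusted p = 0.0398) and in the first set alone (adjusted p = 0.0452). C2 averaged 5.01 over all arrays, at the filter value, and 4.65 in WT, so it was tested only through the Sle1.3 genotypes. Of the terminal pathway C6 (0.79, SE 0.20, adjusted p = 0.0130) and C8g (0.47, SE 0.16, adjusted p = 0.0379) rose in Sle1.3/E2-2het, and neither passed in Sle1.3, where C6 differed by 0.18 and C8g by 0.36. Whether the genotypes differ in these was tested directly, and neither C6 (0.61, adjusted p = 0.171) nor C8g (0.11, adjusted p = 0.825) passed.

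Among 7 tested receptor genes none rose. C5ar2, encoding a second receptor for C5a, was 5.24, 5.39 and 5.81 in Sle1.3/E2-2het and 4.97, 5.03 and 5.81 in Sle1.3, against 5.53 and 5.51 in WT, so the second-set mice lay above WT and the first-set mice below. It fell in Sle1.3 against WT (-0.47, SE 0.14, adjusted p = 0.0330). Cd93, first described as a C1q receptor, was 7.15, 6.89 and 6.84 in Sle1.3/E2-2het and 7.05, 6.42 and 6.93 in Sle1.3, against 7.40 and 7.45 in WT. It fell by 0.62 (SE 0.19, adjusted p = 0.0369) in Sle1.3 and differed by -0.47 (adjusted p = 0.0812, and 0.0425 with the replicate block) in Sle1.3/E2-2het. With the replicate block the integrin gene Itgax, which encodes a chain of complement receptor 4, also passed in Sle1.3/E2-2het against WT (-0.50, adjusted p = 0.0457, and 0.0561 without the block).

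Regulators went both ways. Cd55, the gene of decay-accelerating factor, which dissociates C3 convertases on cell membranes, was 8.94, 9.09 and 9.48 in Sle1.3/E2-2het and 8.47, 8.88 and 9.02 in Sle1.3, against 9.88 and 9.77 in WT. Like Cr1l it lay below WT in all 6 mice. It fell by 0.79 (SE 0.16, adjusted p = 0.00459) in Sle1.3/E2-2het and by 1.17 (SE 0.16, adjusted p = 0.000989) in Sle1.3, and passed in the first set alone in both (adjusted p = 0.00736 in Sle1.3/E2-2het and 0.00326 in Sle1.3). With labelled sex in place of the array set it passed in neither.

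Serping1, encoding the C1 inhibitor, was 5.73, 5.99 and 5.74 in Sle1.3/E2-2het and 5.90, 5.94 and 6.09 in Sle1.3, against 5.15 and 5.18 in WT. The Sle1.3 genotypes lay wholly above WT, and Serping1 rose by 0.64 (SE 0.15, adjusted p = 0.00786) in Sle1.3/E2-2het and by 0.80 (SE 0.15, adjusted p = 0.00360) in Sle1.3. Cd59a, encoding the membrane inhibitor of the terminal complex, was 6.84, 6.40 and 5.52 in Sle1.3/E2-2het and 5.87, 5.49 and 5.43 in Sle1.3, against 5.32 and 5.12 in WT. It rose in Sle1.3/E2-2het (1.26, SE 0.22, adjusted p = 0.00274), where replicates 1 and 2, the males by Xist, lay above every other mouse. In Sle1.3 it differed by 0.60 (adjusted p = 0.0696, and 0.0296 with the replicate block).

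Vtn, the gene of vitronectin, a plasma inhibitor of the terminal complex, rose by 0.69 (SE 0.16, adjusted p = 0.00932) in Sle1.3/E2-2het, and C4bp, of the plasma C4b-binding protein, by 0.63 (SE 0.17, adjusted p = 0.0172). Both averaged 5.04 over all arrays, near the filter value of 5.01, while WT means were 4.65 for Vtn and 4.35 for C4bp. The second-set arrays were the highest for C4bp (5.93 in Sle1.3/E2-2het and 6.06 in Sle1.3). In Sle1.3 Vtn differed by 0.43 (adjusted p = 0.0775) and C4bp by 0.50 (adjusted p = 0.0564, and 0.0210 with the replicate block). Clu, the gene of clusterin, differed by -0.06 in Sle1.3/E2-2het and by -0.08 in Sle1.3.

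The calls among these other complement genes depended on single arrays and on the covariate. In Sle1.3/E2-2het against WT 5 of the 9 calls passed without WT replicate 2 (C4bp, C8g, Colec10 and Vtn were lost) and 6 without Sle1.3/E2-2het replicate 1 (C4bp, C6 and C8g were lost), C6 was also lost without WT replicate 1, and C8g without Sle1.3 replicate 1 or Sle1.3/E2-2het replicate 2. In Sle1.3 against WT Cd55 and Serping1 passed without any 1 array, and the other 4 were lost in part without WT replicates 1 or 2, any Sle1.3 mouse or Sle1.3/E2-2het replicate 3. With labelled sex in place of the array set 1 of the 9 calls in Sle1.3/E2-2het (Fcna) and 0 of the 6 in Sle1.3 passed, and with sex by Xist beside the array set all 9 in Sle1.3/E2-2het and 1 in Sle1.3 (Cd55) did. With genotype alone 2 of the 9 and 2 of the 6 passed. Quantile normalization ended C4bp and C8g in Sle1.3/E2-2het and Cd93, Colec10 and Fcnb in Sle1.3.

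**Figure D4:**
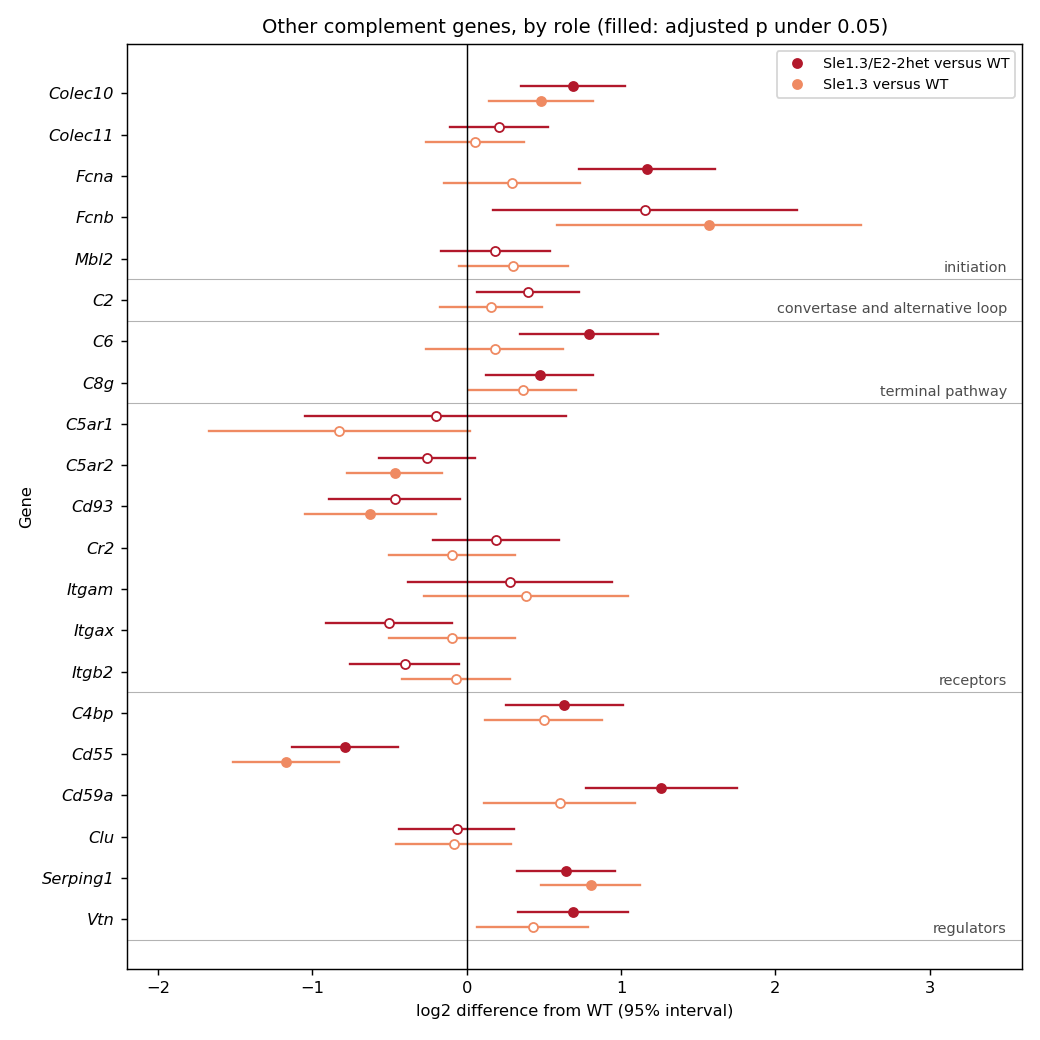
Log2 differences from WT (x axis, points) with 95% intervals (lines) of the 21 other tested complement genes (y axis, grouped by role) in Sle1.3/E2-2het and Sle1.3, with filled points for adjusted p under 0.05. Cd55 lies at -0.79 in Sle1.3/E2-2het and -1.17 in Sle1.3, and Serping1 at 0.64 and 0.80, all filled.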

How the data were processed

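Splenocyte RNA of 8 mice was measured on Affymetrix Mouse Gene ST arrays, 1 per mouse. The authors deposited linear intensity values per probe set. The submitters' processing notes name RMA and Affymetrix Expression Console, with versions and build not given in the sources used here. The deposited intensity distributions differ between arrays, and log2 was taken here without further scaling. Precision is limited by the small number of arrays.

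Of 35556 probe sets, 21789 were assigned to 1 gene symbol, 1621 to several and 12146 to none, by the platform annotation. A gene was its single-gene probe set with the highest mean, and 14953 of 19938 genes above the 25th percentile of mean log2 intensity (5.01) were tested. Coordinates and promoter windows are RefSeq's, GRCm38.p6. Other motifs searched in these windows are not reported here. Limma 3.58.1 in R 4.3.3 (lmFit, eBayes, two-sided) fitted genotype and array set, with 4 residual degrees of freedom, in place of labelled sex, which 1 array contradicts. The array set was told apart by a lowest intensity above 8, a property no label gives. The script was tested on simulated data.

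Arrays of Sle1.3/E2-2het and Sle1.3 with equal replicate number deviated together from their group means (r across genes was 0.573 for number 1, 0.369 for number 2 and 0.618 for number 3, the last pair sharing the second array set), so the replicate number was also fitted as a block. Between WT and the same-numbered mice of the Sle1.3 genotypes r was lower, 0.151 and 0.160 for Sle1.3/E2-2het and -0.0768 and 0.214 for Sle1.3. Block results against WT thus rest on a pairing that the WT arrays show only weakly. Nothing in the labels says what the numbers share. Alternatives were 11 other fits or scalings and the 8 fits that leave out 1 array.

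The members, the other complement genes (by role) and the marker lists (splenic macrophages, monocytes, neutrophils, B cells, T cells, stroma and endothelium, hepatocytes, erythroid cells, plasmacytoid and conventional dendritic cells) were chosen with earlier results of these data known. The rule for named genes took all members, every other listed complement gene that passed in a comparison, the 2 with the smallest p in a role where none passed, and the 5 profiles nearest to the C1q mean. Genes named outside it, after their values were seen, are Cr2, Itgax, Clu, Cd34, Cd46, the 5 profiles nearest to Cr1l and single marker genes.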

Additional observations from a re-analysis of the deposited data

How the results depend on the processing

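The 8 tested members were recomputed under 11 other fits or scalings and with each array left out, except that the filter at the 50th percentile removed C4b. Of 453 recomputed member differences, 411 kept their direction and their side of the threshold. These are not separate checks. Each member had 1 probe set, so the mean of all probe sets reused the same member values. Changing the filter left the differences of the members still tested unaltered. In each comparison 3 or 4 alternatives equal the first set alone. Of the 411, 146 came from Sle1.3/E2-2het against Sle1.3, where no member passed in any fit. In Sle1.3/E2-2het against WT, where 4 members and 5092 genes passed, the group-only fit gave 1076 genes, quantile normalization 2780 and labelled sex 492 genes and 1 member. In Sle1.3 against WT, where 5 members and 3585 genes passed, the group-only fit gave 3 and 879, labelled sex 0 and 199, array set with sex by Xist 0 and 456, the first set alone 2367 genes and quantile normalization 2229. Sle1.3/E2-2het against Sle1.3, where 92 genes passed, gave 2 genes in the group-only fit, 0 with labelled sex, 1 with sex by Xist and 262 with the replicate block. The replicate block left the members called at 4 in Sle1.3/E2-2het against WT, 5 in Sle1.3 against WT and 0 in Sle1.3/E2-2het against Sle1.3, and beyond the values given with the other complement genes it changed no other call among complement genes. Leaving out 1 array gave 1 to 5 members and 1634 to 5214 genes for Sle1.3/E2-2het against WT, 2 to 5 and 1107 to 3649 for Sle1.3 against WT, and 0 members throughout and 26 to 165 genes for Sle1.3/E2-2het against Sle1.3. The cause was not tested.

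Reversed differences were all of members not past the threshold. For Sle1.3/E2-2het against Sle1.3 they were C3ar1 (-0.0861) and Cr1l (0.121) with sex by Xist, a fit in which that comparison is replicate 3 minus replicate 3, 1 mouse in each group, as is its count of 1 gene. Leaving out 1 array there gave -0.00556 to 0.138 for C3ar1, -0.266 to 0.0202 for C1qa and -0.439 to 0.137 for C1qc, with the turned sign without Sle1.3 replicate 2 for C3ar1 and without Sle1.3/E2-2het replicate 2 for both C1q genes. C4b in Sle1.3/E2-2het against WT ranged over -0.0351 to 0.334, negative without Sle1.3/E2-2het replicate 1. Cfp in Sle1.3 against WT was -0.0917 with sex by Xist and ranged over -0.0750 to 0.243, negative without WT replicate 1 or Sle1.3 replicate 1. Median centring split all genes called in Sle1.3/E2-2het against WT into 1177 higher and 4335 lower, and quantile normalization into 1040 and 1740, where the reported split was 1599 and 3493. The split in Sle1.3 against WT was 1115 and 2470, and 935 and 1294 after quantile normalization. With 2 WT mice, values in all comparisons with WT rest on few arrays.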
